A study of Mus musculus with 4 samples.

Results

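Among the autosomal chromatin regions that were open in all 4 libraries of an ATAC-seq comparison of Sphk2 KO with WT mice, 482 of 16657 ranked higher in both Sphk2 KO libraries than in both WT libraries. ATAC-seq marks open chromatin by letting the Tn5 transposase cut and tag it, and the authors called peaks of tagged fragments in each library. The cells were myeloid-derived suppressor cells, sorted as Gr1+CD11b+ from the ascites of mice carrying EL4, a mouse T cell lymphoma line, 14 days after its injection. The 2 Sphk2 KO libraries came from mice without Sphk2 and the 2 WT libraries from wild-type mice, each from 20000 cells, and both genotypes carried the tumour. The labels name no strain, age or type of knockout allele, and they call the libraries biological replicates without tying them to animals. Any spread between libraries may therefore be partly technical.

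The members were selected on the measured values themselves. Overlapping peaks of the 4 lists were merged into regions, and each region took from every library the highest fold enrichment that the authors' peak caller gave there, the fragment pileup over its local background. These values were turned into percentile ranks within each library, with 100 for the highest. A region was a member when the lower of its Sphk2 KO ranks exceeded the higher of its WT ranks by 10 points or more, and this difference is called the gap below. The separation of the genotypes in these ranks was thus fixed by the choice and is given as a description with no test. With 2 libraries against 2, the smallest p that a 2-sided exact permutation test could give was 0.333.

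Sphk2 encodes sphingosine kinase 2, which phosphorylates sphingosine to sphingosine 1-phosphate, a lipid that signals through cell surface receptors and, in the nucleus, is known to inhibit histone deacetylases. Myeloid-derived suppressor cells are immature granulocytic and monocytic cells that expand in tumour-bearing hosts and restrain T cells. In myeloid cells, promoters are mostly open in every state, while enhancers inside and between genes carry much of the difference between cell states, bound by factors such as PU.1 and C/EBP proteins. The shared regions included 45 assigned to 16 of 20 granulocytic marker genes and 22 assigned to 10 of 16 monocytic ones. The 20 T cell markers, which EL4 cells could contribute, had 8 shared regions, the B cell markers had 0, and the genes silent in blood had 0.

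Most members lay outside promoters, and the sequence there was not used here. The sequences below are the RefSeq promoter windows (GRCm38.p6, 250 bases before to 50 after the start of a gene) of the 6 members with the largest gaps that overlapped the window of a protein-coding gene, each shown for its member and 5′ to 3′ on the strand of the gene. Where a region overlapped the windows of a pair of genes, 1 is shown. Capitals mark matches, on either strand, to 15 short motifs whose letters are given further on. Mcee encodes methylmalonyl-CoA epimerase of propionate breakdown (chr7:64392372-64392671, plus strand), Rnf114 a ubiquitin ligase (chr2:167503193-167503492, plus strand), Keap1 the sensor that restrains the antioxidant factor NRF2 (chr9:21239283-21239582, minus strand), and Acp2 a lysosomal acid phosphatase (chr2:91202662-91202961, plus strand). Dclre1a encodes a nuclease of DNA crosslink repair (chr19:56548173-56548472, minus strand) and Cebpa the transcription factor C/EBP alpha, which granulocyte development requires (chr7:35119043-35119342, plus strand).
Mcee: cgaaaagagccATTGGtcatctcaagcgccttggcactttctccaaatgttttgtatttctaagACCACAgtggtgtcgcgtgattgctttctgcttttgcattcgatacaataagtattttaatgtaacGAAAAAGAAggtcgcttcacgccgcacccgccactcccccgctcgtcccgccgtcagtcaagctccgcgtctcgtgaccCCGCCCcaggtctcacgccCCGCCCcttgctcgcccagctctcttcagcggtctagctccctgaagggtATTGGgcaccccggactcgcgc
Rnf114: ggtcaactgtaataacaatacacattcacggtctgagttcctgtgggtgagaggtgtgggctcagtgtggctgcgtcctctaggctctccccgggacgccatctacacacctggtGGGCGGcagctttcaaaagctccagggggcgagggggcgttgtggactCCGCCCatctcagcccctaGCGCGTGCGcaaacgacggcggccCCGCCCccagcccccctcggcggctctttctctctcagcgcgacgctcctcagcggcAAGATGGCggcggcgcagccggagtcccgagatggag
Keap1: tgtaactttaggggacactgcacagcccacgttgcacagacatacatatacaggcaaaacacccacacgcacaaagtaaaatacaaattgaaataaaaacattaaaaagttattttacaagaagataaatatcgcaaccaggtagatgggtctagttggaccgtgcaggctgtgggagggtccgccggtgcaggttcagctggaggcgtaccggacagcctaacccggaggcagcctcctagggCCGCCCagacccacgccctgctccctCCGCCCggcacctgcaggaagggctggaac
Acp2: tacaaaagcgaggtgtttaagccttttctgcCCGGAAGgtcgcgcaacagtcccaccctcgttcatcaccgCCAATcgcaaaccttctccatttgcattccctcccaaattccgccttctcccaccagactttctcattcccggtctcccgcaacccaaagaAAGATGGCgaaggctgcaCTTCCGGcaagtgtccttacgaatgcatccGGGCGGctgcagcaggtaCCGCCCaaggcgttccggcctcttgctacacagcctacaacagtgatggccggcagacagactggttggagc
Dclre1a: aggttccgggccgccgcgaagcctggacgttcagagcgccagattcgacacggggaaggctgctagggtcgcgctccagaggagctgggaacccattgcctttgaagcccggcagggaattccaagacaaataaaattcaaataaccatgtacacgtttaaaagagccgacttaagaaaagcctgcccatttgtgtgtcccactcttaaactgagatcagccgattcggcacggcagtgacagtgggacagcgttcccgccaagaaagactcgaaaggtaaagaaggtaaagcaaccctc
Cebpa: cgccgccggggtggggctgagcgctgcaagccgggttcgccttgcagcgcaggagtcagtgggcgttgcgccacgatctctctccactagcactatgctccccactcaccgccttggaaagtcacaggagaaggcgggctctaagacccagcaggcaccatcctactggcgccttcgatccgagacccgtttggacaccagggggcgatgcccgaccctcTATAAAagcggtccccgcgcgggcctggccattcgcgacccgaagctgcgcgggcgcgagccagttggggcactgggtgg
The Mcee window held 6 matches, 2 of them GC boxes within 41 bases before the start, and the Acp2 window held 6. The Cebpa window held a single match, a TATA box 30 bases before the start, and the Dclre1a window held 0. The summits of the Keap1, Rnf114 and Dclre1a regions lay outside the windows shown. They were 464 bp past the start at Keap1, 75 bp past it at Rnf114 and 339 bp before it at Dclre1a. Those of the Mcee, Cebpa and Acp2 regions lay 78, 62 and 24 bp before the start, inside the windows.

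The 482 members made 2.89% of the shared regions, fewer than the 574 regions (3.45%) that ranked higher in WT by the same rule. The mixed-genotype pairs gave the counts that the same libraries produce when each pair holds 1 library of either genotype. Sphk2 KO replicate 1 with WT replicate 1 ranked above the other pair in 297 regions (1.78%), and the reverse held in 387 (2.32%). Sphk2 KO replicate 1 with WT replicate 2 ranked above the other pair in 193 regions (1.16%), and the reverse held in 281 (1.69%). In both directions together the genotype split gave 1056 regions, and the mixed splits gave 684 and 474. At a gap of 20 points or more there were 75 members (0.45%) and 119 regions ranking higher in WT, while the mixed pairs gave between 7 and 56. At 30 points the counts were 12 members, 27 regions ranking higher in WT, and 1 to 3 regions for a mixed pair. At these thresholds the members thus outnumbered the regions of each mixed pair, the largest of which gave 387 at 10 points. At 5 points 1247 regions ranked higher in Sphk2 KO, and the mixed pairs gave 717 to 1092. With any gap above 0 this no longer held. Then 3102 regions (18.6%) ranked higher in Sphk2 KO, while Sphk2 KO replicate 1 with WT replicate 1 ranked above the other pair in 3298 (19.8%). No p-value was computed, because regions are not replicates and there are only 3 splits.

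**Figure D1:**
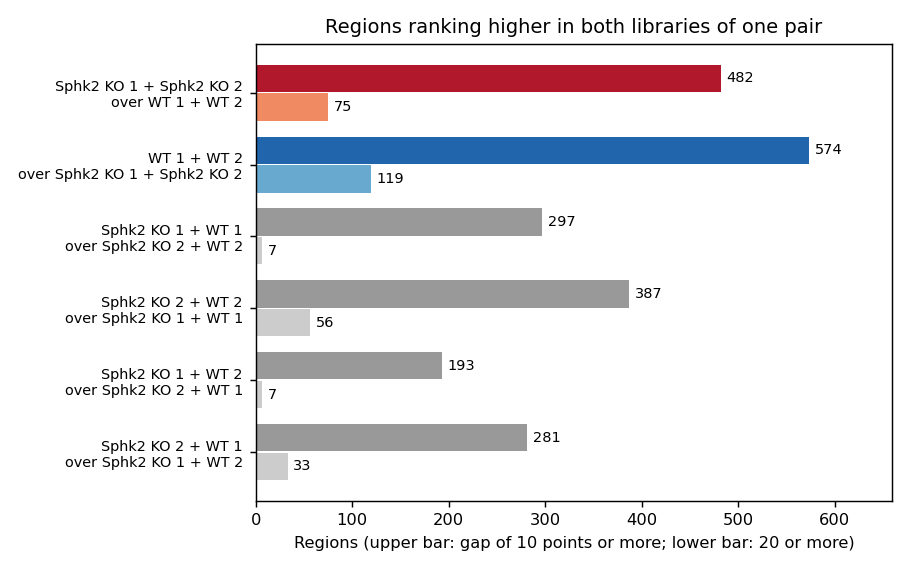
Number of shared regions in which both libraries of one pair ranked above both libraries of the other, for every way to pair the 4 libraries; the numbers 1 and 2 after each genotype are the replicates, upper bars count gaps of 10 points or more and lower bars 20 or more. The genotype pairs gave 482 and 574 regions, against 193 to 387 for the mixed pairs.

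The libraries themselves differed in depth, in the direction of the genotypes, and Sphk2 KO replicate 1 was the weakest. Peaks numbered 20759 and 27446 in Sphk2 KO replicates 1 and 2, against 31507 and 31843 in WT replicates 1 and 2. The median −log10 q over the shared regions was 21.6 and 43.7 in Sphk2 KO and 34.1 and 39.6 in WT. Retained fragments numbered 25877428 and 27686223 in Sphk2 KO and 33859480 and 34443062 in WT, and the median fold enrichment over the shared regions was 6.87 and 8.31 in Sphk2 KO and 7.98 and 7.77 in WT. Ranks correlated between libraries with Pearson's r of 0.907 within Sphk2 KO, 0.931 within WT and 0.889 to 0.921 across genotypes, over the same 16657 regions and with no p. Sphk2 KO replicate 2 correlated more closely with WT replicates 1 and 2, at 0.912 and 0.921, than with Sphk2 KO replicate 1. The part of depth in the choice of members was not tested.

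In level, the members were regions of middling strength, and so were the regions ranking higher in WT. The rank averaged over the 4 libraries had a median of 42.8 in members and 42.1 in those regions. The members' median fold enrichment was 7.35 and 8.76 in Sphk2 KO replicates 1 and 2, against 6.19 and 6.25 in WT replicates 1 and 2. Their median rank was 55.04 and 54.7 in Sphk2 KO and 29.6 and 31.7 in WT, which is a little above the middle of the shared regions in Sphk2 KO and well below it in WT. The ratio of the mean Sphk2 KO fold enrichment to the mean WT fold enrichment ranged from 1.10 to 2.03 over the members, with a median of 1.27, and the median over all shared regions was 0.976. The gap ranged from 10.0 to 53.0 points with a median of 13.5, so that most members lay near the threshold. In 464 of the 482 members (96.3%) the fold enrichment as deposited was higher in both Sphk2 KO libraries than in both WT libraries. In the other 18 it was not. Of all 16657 shared regions, 1808 (10.9%) had that order. Since the ranks were made from these values, the choice of members bears on this count too. Just inside the threshold, at a gap of 10.0, were regions near Slc44a3, Txlnb and Sys1, and just outside, at 9.98 to just under 10, were regions near Trps1, Cby1 and Nit1.

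Fold enrichment depends on a pileup and on the background around it. The lists give the pileup but no background. The background below was worked back from each region's highest pileup and highest fold enrichment, so it is no separate measurement. After each pileup was divided by its library's median over the shared regions, it was higher in both Sphk2 KO libraries for 446 members (92.5%) and lower in both for 4 (0.830%), compared with 29.1% and 20.03% of all shared regions. The members' median scaled pileup was 0.895 and 0.823 in Sphk2 KO and 0.613 and 0.635 in WT. Their median scaled background was 0.836 and 0.808 in Sphk2 KO and 0.780 and 0.785 in WT, which is also higher in Sphk2 KO, by a smaller amount. Since fold enrichment is made from the pileup, the choice of members bears on these values too, and they are a description. Ranked by pileup in place of fold enrichment, 205 of the 482 (42.5%) would still be members. As deposited, the members' median pileup was 38.5 and 65 fragments in Sphk2 KO and 38 and 47 in WT. Over all shared regions it was 43 and 79 in Sphk2 KO and 62 and 74 in WT. By this measure the members were thus below the middle of the shared regions in both genotypes, and further below it in WT.

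**Figure D2:**
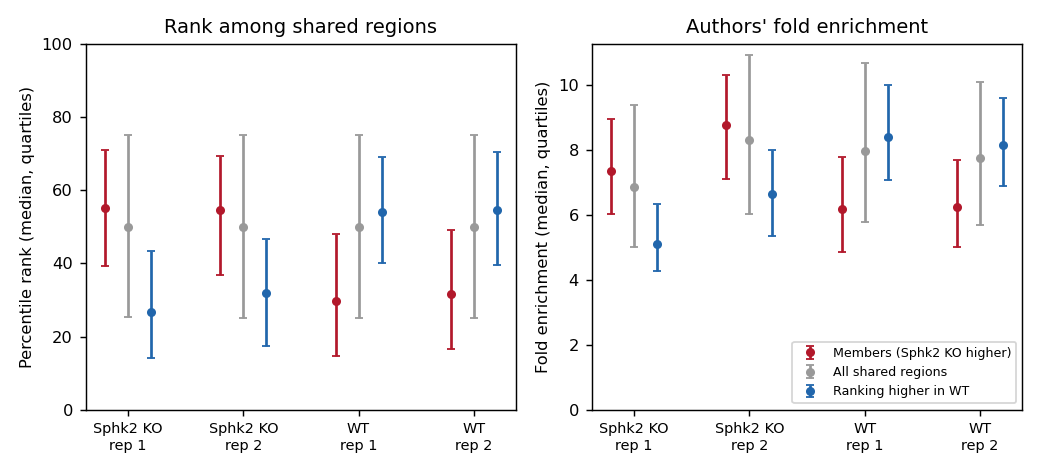
Median and quartiles of the percentile rank (left) and of the authors' fold enrichment (right) in each library for the 482 members, all 16657 shared regions and the 574 regions ranking higher in WT. The members' median rank was 55.04 and 54.7 in Sphk2 KO and 29.6 and 31.7 in WT, which the choice of members fixed.

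The largest gap, 53.0 points, belonged to a region 51 bp from an end of Syngr4, a synaptogyrin gene (chromosome 7, 45896354 to 45897674, mm10). Its fold enrichment was 9.96 and 13.2 in Sphk2 KO, against 5.57 and 5.85 in WT, and its pileup was 81 and 179 fragments in Sphk2 KO, against 33 and 46 in WT. It was therefore one of the stronger members in Sphk2 KO, at ranks of 79.6 and 91.4, and a weak region in WT, at 22.4 and 26.7. The next region lay between genes, 10664 bp from Raet1e, which encodes a stress-induced ligand of the NK cell receptor NKG2D (chromosome 10, 22199805 to 22200730). Its fold enrichment was 10.3 and 10.8 in Sphk2 KO, against 6.19 and 6.28 in WT, from pileups of 40 and 60 fragments in Sphk2 KO and 27 and 31 in WT. The third lay inside Gab2, an adaptor of cytokine and growth factor receptors (chromosome 7, 97171573 to 97172745), with 8.29 and 11.6 in Sphk2 KO and 5.30 and 5.70 in WT. At each of these regions the Sphk2 KO fold enrichments spread more widely from each other than the WT ones did. The library medians over all shared regions did so too, at 6.87 and 8.31 in Sphk2 KO and 7.98 and 7.77 in WT. That the genotypes did not overlap follows from the choice of members.

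The 25 members with the largest gaps lay in or near genes of varied roles, and those with values here are examples. Inside Cd101, a surface protein of myeloid cells and T cells (chromosome 3, 101003721 to 101004294), fold enrichment was 6.38 and 7.28 in Sphk2 KO, against 3.69 and 3.59 in WT, where the pileup was only 16 and 19 fragments. A region 41678 bp from Jak2, the kinase of many cytokine receptors (chromosome 19, 29209850 to 29210590), had 6.78 and 6.90 in Sphk2 KO, against 3.76 and 3.93 in WT, but its gap of 28.0 points was 8.90 by pileup. The region nearest to Spata2, an adaptor of the TNF receptor pathway, lay inside Rnf114 at the promoter shown above and had 6.86 and 7.98 in Sphk2 KO, against 5.12 and 5.26 in WT. Its gap of 26.6 points was 1.40 by pileup. A region 67102 bp from Hlx, a homeobox transcription factor gene, had 9.34 and 11.2 in Sphk2 KO, against 6.56 and 7.61 in WT. A region inside both Dock2, which activates Rac in migrating leukocytes, and Insyn2b had 6.53 and 8.01 in Sphk2 KO, against 4.64 and 5.28 in WT. Its gap of 25.7 points was 9.80 by pileup and 3.44 when the mean fold enrichment over a library's peaks was ranked. Distances as long as these link a region to its nearest gene end by position only.

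The Mcee promoter region (chromosome 7, 64391804 to 64392958), which lies between Mcee and the divergent gene Mphosph10, was among the stronger members, with a fold enrichment of 13.8 and 13.03 in Sphk2 KO, against 8.99 and 8.19 in WT, and pileups of 158 and 268 fragments in Sphk2 KO, against 96 and 111 in WT. Inside Rbks, the ribokinase gene, the values were 7.53 and 10.2 in Sphk2 KO, against 5.52 and 5.50 in WT. At Coa4, an assembly factor of cytochrome c oxidase, a region 660 bp from the gene end had 6.18 and 7.30 in Sphk2 KO, against 4.32 and 4.32 in WT. Inside Osbpl9, of the oxysterol-binding protein family, a region whose nearest gene end was that of Nrd1, a metalloprotease gene, had 7.50 and 10.5 in Sphk2 KO, against 4.50 and 5.45 in WT, and its gap of 34.7 points was 6.57 by pileup. The other regions of the 25 lay nearest to Dtnb, Styxl1, Cnbd2, Sv2c, Atxn7l1, Tcf20, Gadl1, Vmn2r82, Asb2, Dip2b, Babam2, 4932438H23Rik and, a further time, Raet1e. Of the 25, 14 lay inside genes, 8 between genes and 3 at gene ends, and 4 were on chromosome 7.

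**Figure D3:**
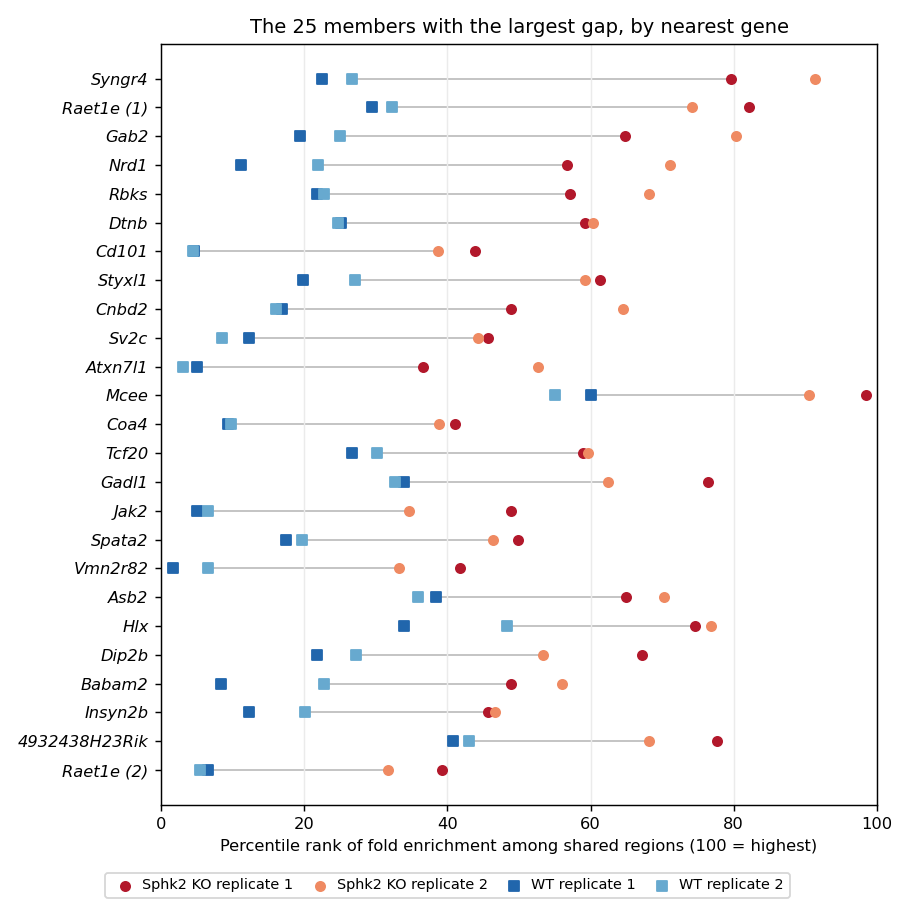
Percentile rank of fold enrichment in each library for the 25 members with the largest gap, named by the gene with the nearest end; grey lines span the gap between the lower Sphk2 KO rank (circles) and the higher WT rank (squares). The gap ran from 53.0 points at Syngr4 to 25.1 at the second Raet1e region, and the separation itself follows from the choice of members.

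At the targeted locus the shared regions went in opposite directions. Sphk2 lies on chromosome 7 from 45709463 to 45718002. The region at its start, which is also the start of Rpl18 (45717303 to 45718352), ranked far lower in Sphk2 KO, with a fold enrichment of 5.002 and 5.91 in Sphk2 KO, against 9.97 and 9.80 in WT, and ranks of 24.6 and 23.6 in Sphk2 KO, against 68.9 and 72.2 in WT. A region 1657 bp beyond the other end of Sphk2, inside Dbp, a circadian transcription factor gene (45706859 to 45708424), was a member with a gap of 22.5 points. Its fold enrichment was 5.57 and 6.30 in Sphk2 KO, against 3.67 and 3.76 in WT, and its pileup was 66 and 123 fragments in Sphk2 KO, against 36 and 49 in WT. Another region next to it, at the Car11 and Dbp ends, ranked at 19.9 and 8.52 in Sphk2 KO and at 26.6 and 23.2 in WT. A peak list does not show which part of the gene the allele lacks, so what these values owe to the altered sequence was not tested.

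By gene group, members were spread thinly. Of the 482, 459 lay within 100 kb of a protein-coding gene and were assigned to 444 genes, so nearly every gene had 1. They made 2.87% of the regions assigned to any gene, beside 3.43% ranking higher in WT. Of the 32 gene lists examined, 11 had shared regions but no member, and 2 had no shared region. Counts within a list are small, each is a description, and a share near 2.87% says nothing particular of a list. Of 57 named members, 41 would still reach a gap of 10 points if ranked by −log10 q and 35 if ranked by pileup. The members at Bach1, Ccne1 and Nr4a1, for example, were below 10 by both.

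Among myeloid transcription factors, 5 of 106 shared regions (4.72%) were members and 2 (1.89%) ranked higher in WT. The Cebpa promoter region (chromosome 7, 35118142 to 35119850) had a fold enrichment of 8.51 and 9.24 in Sphk2 KO, against 6.43 and 6.65 in WT, and a gap of 22.5 points. Regions near Klf6, a zinc finger factor (gap 14.5), and inside the ETS family genes Fli1 (12.8) and Etv6 (11.6) followed, the last 2 of which were under 10 points by −log10 q, at 8.80 and 9.34, and by pileup, at 5.53 and 8.36. The other was inside the span of Stat5b, a signal transducer of GM-CSF and other cytokines, at a gap of 10.8. Its summit lay on an annotated start of that gene. Etv6 also had a region that ranked higher in WT.

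Granulocytic markers had 2 members of 45 shared regions (4.44%) and no region ranking higher in WT. Inside S100a9, an alarmin subunit abundant in neutrophils (chromosome 3, 90692064 to 90694112), fold enrichment was 6.86 and 6.89 in Sphk2 KO, against 4.99 and 5.23 in WT. The region 19976 bp from Il1r2, the interleukin 1 decoy receptor, had 10.3 and 12.0 in Sphk2 KO, against 9.11 and 9.68 in WT. Monocytic markers had 1 member of 22 (Nr4a1, a nuclear receptor of patrolling monocytes) and 1 region ranking higher in WT (Cd14, the lipopolysaccharide co-receptor). Dendritic cell markers had 1 of 7, at Clec9a. T cell markers had 0 of 8, macrophage markers 0 of 12, NK cell markers 0 of 4, eosinophil, mast cell and basophil markers 0 of 6 and erythroid markers 0 of 2. Over the 8 T cell marker regions the median rank was 50.2 and 42.6 in Sphk2 KO and 32.4 and 40.8 in WT, and the part of such cells in the members was not tested. In a sorted population a change in the mixture of cells and a change within cells cannot be told apart.

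MDSC effector genes had 2 of 42 (4.76%), near Rac2, the leukocyte GTPase that activates the NADPH oxidase (gap 22.1), and inside Alox5ap, which leukotriene synthesis requires (15.8, but 5.67 by −log10 q and 2.38 by pileup), with no region ranking higher in WT. Chemokine and cytokine receptors had 2 of 78, inside Il1r1 and near Ifngr1, the chains that bind interleukin 1 and interferon gamma, beside 2 ranking higher in WT. NF-kB and cytokine genes had 3 of 64, inside Nfkb1 (gap 14.9), inside the chemokine gene Ccl9 (12.5, but 9.58 by −log10 q and 4.90 by pileup) and at Rela (10.2), beside 3 ranking higher in WT. The Rela region had a gap of 1.14 by −log10 q and was reversed by pileup, at -6.16. The type I interferon list had 1 member of 22 shared regions and 8 ranking higher in WT (36.4%). Its member lay 3842 bp from Rsad2, the antiviral protein viperin, and depended on the measure. Its fold enrichment was 10.5 and 9.72 in Sphk2 KO, against 7.72 and 7.96 in WT, but its pileup was 69 and 93 fragments in Sphk2 KO, against 120 and 149 in WT, and its gap was -24.5 by pileup and -16.1 by −log10 q.

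MHC class II and costimulation genes had 1 member of 35, near H2-Ab1, beside 2 ranking higher in WT, and AP-1 factors had 1 of 52, at Bach1, a related repressor, beside 1. Adhesion genes had 1 of 43, inside Itgb3, beside 2. Cell death genes had 1 of 46, near Pmaip1, which encodes the BH3-only protein NOXA and whose gap was 18.6 by fold enrichment and -1.86 by pileup, beside 2. Cell cycle genes had 2 of 43, near the inhibitor gene Cdkn1a and at the cyclin gene Ccne1, beside 1. The Cdkn1a gap of 15.9 points was 7.70 by −log10 q and 3.49 by pileup. The housekeeping list had 1 of 34, at Eef1a1 (gap 20.2, but 7.14 by −log10 q and 1.504 by pileup), and no region ranking higher in WT.

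Lipid metabolism is named in the study's title, and its genes were covered by several lists. The triacylglycerol and lipid droplet list had 3 of 33 (9.09%), beside 1 ranking higher in WT. All 3 were on chromosome 7 between 40 and 100 Mb, a stretch where 7.96% of all shared regions were members. A pair of the 3 lay inside Abhd2, a lipid hydrolase gene. For the region at 79346077, fold enrichment was 8.29 and 7.65 in Sphk2 KO, against 4.20 and 5.60 in WT. At the other Abhd2 region, at 79313888, it was 9.18 and 8.11 in Sphk2 KO, against 6.19 and 5.99 in WT. The other member lay 7320 bp from Dgat2, the final enzyme of triacylglycerol synthesis (gap 14.7), which also had a region ranking higher in WT. The sphingolipid list had 2 of 52, the region next to Sphk2 and one inside Sgms1, sphingomyelin synthase (gap 12.0, but 7.47 by −log10 q and 1.34 by pileup), beside 2 ranking higher in WT. The cholesterol list had 1 of 35, the Acp2 promoter region 59 bp from the end of Nr1h3, which encodes the oxysterol receptor LXR alpha, with 9.62 and 11.6 in Sphk2 KO, against 8.15 and 8.01 in WT, and a gap of 24.2 points that was 7.39 by pileup. Phospholipid synthesis had 1 of 47, inside Pla2g7 (gap 14.1, but 5.88 by pileup), beside 0 ranking higher in WT. Fatty acid synthesis had 0 of 44, fatty acid uptake and oxidation 0 of 23 and glycolysis 0 of 57, each beside 1 ranking higher in WT. Histone deacetylases and acetyltransferases had 0 of 30 beside 2, oxidative phosphorylation 0 of 20 beside 3 and circadian clock genes 0 of 23 beside 2. The member inside Dbp, itself a clock-controlled gene on that list, was counted for Sphk2, whose end lies nearer.

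In position, members were found inside genes more than at gene ends. Within 1 kb of a gene end were 121 members (25.1%), compared with 45.1% of all shared regions and 44.3% of those ranking higher in WT. Inside genes were 212 members (44.0%), compared with 30.5% and 27.9%, and between genes 149 (30.9%), compared with 24.3% and 27.9%. Put as a rate, 1.61% of the 7515 shared regions at gene ends were members, 4.17% of the 5087 inside genes and 3.67% of the 4055 between genes, whereas regions ranking higher in WT made 3.38%, 3.15% and 3.95%. Members lay over 50 kb from any gene end in 74 cases (15.4%), compared with 9.83% of shared regions. Among the 473 members off chromosome 18, 117 (24.7%) overlapped a RefSeq promoter window, compared with 44.1% of shared regions.

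**Figure D4:**
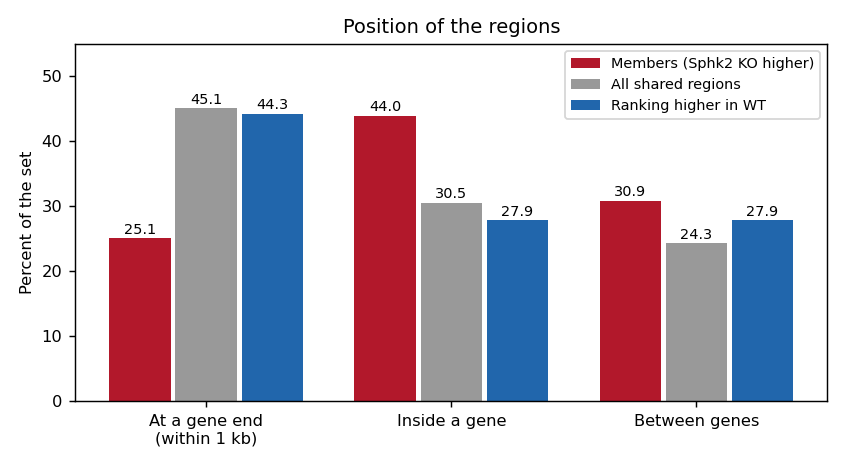
Percent of the 482 members, of all 16657 shared regions and of the 574 regions ranking higher in WT that lay within 1 kb of the end of a protein-coding gene, inside a gene or between genes. Members were at gene ends in 25.1% of cases, against 45.1% of all shared regions and 44.3% of those ranking higher in WT.

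Position and strength go together, since regions at gene ends were the strongest, with a median rank of 66.1 and 66.3 in Sphk2 KO and 67.6 and 66.9 in WT. Sorted by mean rank into 5 groups of equal size, from weakest to strongest, 1.95%, 4.68%, 4.41%, 2.85% and 0.570% of regions were members. Regions ranking higher in WT made 1.92%, 6.03%, 5.73%, 3.09% and 0.450% of the same groups. Within each group the share at gene ends was also lower among members than among all shared regions. The shares were 9.23% of members and 22.6% of shared regions in the weakest group, 17.9% and 30.6% in the next, 29.3% and 41.1% in the middle one, 36.8% and 55.5% in the one above, and 47.4% of 19 members and 75.8% in the strongest. The regions ranking higher in WT stood at 26.6%, 42.8%, 46.6%, 51.5% and 60.0%. Where ranks were taken separately among regions at gene ends and the others, 30.8% of the members then found lay at gene ends, beside 33.9% of the regions then ranking higher in WT. The contrast with the opposite direction therefore shrank to about 3 points under that setting, while both sets stayed below the 45.1% of all shared regions.

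Chromosome 7, which carries Sphk2, held 38 members, 7.88% of them beside 6.87% of shared regions. Its rate of 3.32% lay within the range of 1.95% to 3.85% over the other autosomes. Among the 75 members with a gap of 20 points or more, however, 11 (14.7%) were on it, more than on any other chromosome, where the count was at most 7. These were the regions at Syngr4, Mcee, Cebpa, Coa4 and Bcl7c, both Gab2 regions, those inside Akap13, Pak1 and, next to Sphk2, Dbp, and a region 18829 bp from Klhl25. The summit of the Pak1 region lay 221 bp past an annotated start of that gene.

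Along the chromosome member rates were highest from 40 to 100 Mb, a stretch that holds Sphk2 and was chosen after the positions had been seen. It held 27 members among 339 shared regions (7.96%), of which 8 had a gap of 20 points or more, compared with 2.79% of all other autosomal regions. Regions ranking higher in WT were also more frequent there, at 19 of 339 (5.60%) beside 3.401% elsewhere. The stretches from 60 to 80 and from 80 to 100 Mb had rates of 9.52% (8 of 84) and 9.45% (12 of 127), while the first 20 Mb had 0 of 164. Over 108 stretches of 20 Mb on the other autosomes with at least 50 shared regions the median rate was 2.43%, and the highest was 7.79% (6 of 77, chromosome 10, 20 to 40 Mb). The chromosome's share of members was higher with other measures, at 11.1% by −log10 q and 12.7% by pileup. What the genetic background around the altered allele contributes was not tested, and it cannot be told apart from the genotype in this design.

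**Figure D5:**
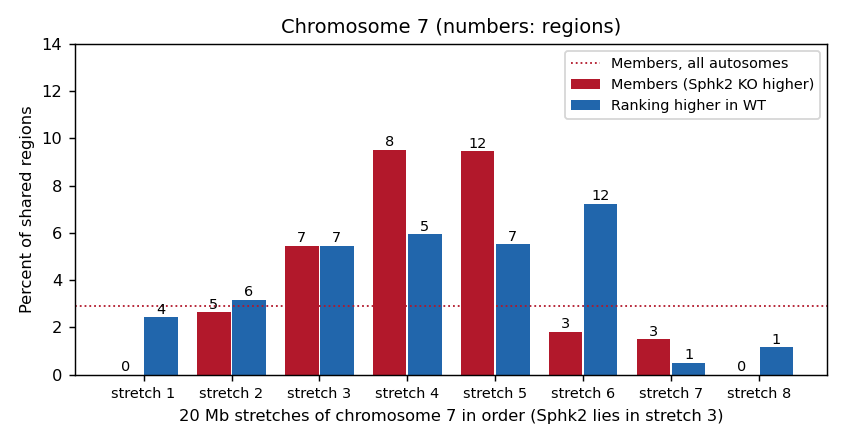
Percent of shared regions that were members or that ranked higher in WT in successive 20 Mb stretches of chromosome 7, with the number of regions above each bar and the member rate of all autosomes, 2.89%, as a dotted line. Member rates were 9.52% and 9.45% in the stretches from 60 to 80 and 80 to 100 Mb, and 0 in the first and last stretches.

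Members seldom formed clusters. Within 100 kb of another member were 71 (14.7%), close to the 13.7% of all shared regions that had a member as near. A region that had peaks in the pair of Sphk2 KO libraries but in no WT library lay within 100 kb of 40 members (8.30%), beside 6.39% of shared regions. The opposite kinds were also near more members. A region ranking higher in WT lay within 100 kb of 75 members (15.6%), beside 11.9% of shared regions, and a region with peaks in the WT libraries alone lay as near to 183 members (38.0%), beside 35.1%. The shared neighbours of members had a median rank difference, Sphk2 KO minus WT, of 0.533 points, beside 0.468 for the neighbours of all shared regions. Raet1e and Babam2, a subunit of the BRCA1-A and BRISC complexes, were the only genes with 3 members, of 5 and 6 shared regions. At Raet1e the gaps were 42.0, 25.1 and 14.9 points, and another member of the same stretch lay near Raet1d, which encodes another NKG2D ligand (gap 24.8). This stretch of chromosome 10, from 22199805 to 22391066, held 4 members among 7 shared regions and 1 region ranking higher in WT. The Raet1 genes are closely similar copies, so reads may be shared among them. On chromosome 1, from 40064379 to 40322615, 3 of 12 shared regions were members, near Il1r2, inside Il1r1 and near Il1rl2, the interleukin 36 receptor gene, and none ranked higher in WT. That stretch was chosen after its values were seen.

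The promoters of members resembled those of other open promoters in base composition. The 156 RefSeq windows overlapped by members, of 139 genes, had a median GC content of 62.2%, beside 62.3% for all windows in shared regions and 53.0% for all 31396 windows. The motifs searched, with N for any base, were the GC box GGGCGG, the CCAAT box CCAAT, ETS CCGGAAG, PU.1 GAGGAAG, AP-1 TGANTCA, C/EBP TTGCNNAA, RUNX TGTGGT and IRF GAAANNGAA. The others were CRE TGACGTCA, the E-box CACGTG, NRF1 GCGCNTGCG, NF-kB GGANTTTCC, YY1 AAGATGGC, the TATA box TATAAA and the D-box TTANNTAA of DBP. Both strands were searched and a base could belong to matches of several motifs.

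A GC box stood in 60.9% of members' windows, 68.2% of windows in shared regions and 36.0% of all windows. For the CCAAT box the shares were 35.3%, 38.2% and 37.3%, for ETS 23.1%, 21.5% and 9.004%, for PU.1 14.7%, 13.9% and 13.4%, and for the E-box 14.1%, 11.1% and 7.14%. The NRF1 motif stood in 14.1%, 16.3% and 6.37%, RUNX in 11.5%, 11.9% and 16.7%, the TATA box in 8.33%, 5.63% and 13.6%, and C/EBP in 7.69%, 7.72% and 10.9%. IRF letters stood in 6.41% of members' windows, 6.66% of windows in shared regions and 8.52% of all windows, whereas the windows of regions ranking higher in WT had them in 12.3%. AP-1 was at 4.49%, 4.60% and 7.84%, CRE at 4.49%, 3.73% and 1.83%, YY1 at 3.21%, 5.28% and 2.75%, the D-box at 1.92%, 2.77% and 5.98%, and NF-kB at 1.28%, 1.23% and 1.26%. A match is a run of letters and not a bound site, and the 156 windows cover only the minority of members that lay at promoters.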

How the data were processed

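ATAC-seq peak lists of 2 Sphk2 KO and 2 WT libraries were used. The submitters' processing notes name cutadapt, BWA, MACS2 and the build mm10. Per the file headers, peaks were called in each library separately with MACS 2.1.1.20160309 in its paired-end mode, with no control library, a q-value cutoff of 0.05, 1 fragment kept per position and a local background of 10 kb. A shift of fragment ends for Tn5 is not mentioned in the sources used here. The deposited lists give for each peak a pileup (a coverage signal, not scaled to depth), the authors' −log10 p-value and q-value, and a fold enrichment, the authors' ratio of pileup to local background. These are each peak's own values, so they were ranked within each list only.

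Autosomal peaks that shared 1 bp were merged, and regions called in all 4 libraries were ranked by their highest fold enrichment. Members and gene lists were chosen with earlier results of these data known. Regions were assigned to the nearest end of a protein-coding gene (RefSeq GRCm38.p6, the assembly of mm10, 20661 autosomal genes) within 100 kb of the mean summit. That table has no exons, introns or strand. Of 682 list entries, 668 were found on autosomes. Genes were named by rule: regions at Sphk2, the 25 members with the largest gap, up to 4 members per list, the 3 regions on each side of the threshold, and genes with 3 or more members. Other genes and stretches were named after their values were seen. A result that the rule takes is not reported here. The ranking rule was run on simulated data to check that the code returns planted regions. The simulation had no depth differences and less noise than these libraries, so it gives no rate of false members here. Python 3.11.15, pandas 2.3.3, numpy 2.4.6, scipy 1.17.1 and matplotlib 3.10.9 were used. Alternatives were other rank measures, thresholds, peak filters, overlap rules, ranks within position classes and each library left out.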

Additional observations from a re-analysis of the deposited data

How the results depend on the processing

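The 482 members were 31 with centred log2 fold enrichments 0.5 or more apart, 1247 at a gap of 5 points and 75 at 20. With 1 library left out they numbered 1271 to 1899, since 1 library then stands for its genotype. Between 439 and 470 of the 482 were kept in those runs, 290 when ranked by −log10 q, 205 by pileup, and 415 to 481 under the other peak, overlap and rank settings. The share of members on chromosome 7, 7.88%, was 11.1% by −log10 q, 12.7% by pileup, 12.9% with centred log2 values, 14.7% at a gap of 20, and 6.21% to 7.37% with 1 library left out. The share at gene ends, 25.1%, was 17.8% by −log10 q, 14.9% by pileup, 12.9% with centred log2 values, 30.4% at a gap of 5, 18.7% at 20, 30.1% with peaks of −log10 q of 5 or more, 30.8% with ranks within position classes, 20.5% with gene ends drawn at 500 bp, and 26.9% to 32.4% with 1 library left out. It stayed below the share of all shared regions in each of these settings. Of 57 named gaps, 41 were still past 10 points by −log10 q and 35 by pileup. The gap near Rsad2 was -16.1 by −log10 q and -24.5 by pileup, that near Pmaip1 -1.86 by pileup and that at Rela -6.16 by pileup. The cause of these changes was not tested. Whether replicate numbers pair the samples was not settled. The r of the within-genotype differences was 0.0887 across regions, with no p. Past 10 points either way, the split by replicate number gave 684 regions and the crossed split 474. With the replicate block added after the data were seen, both same-numbered differences at 10 points or more, 844 regions were found, 482 of them the members, since that rule asks less of each region; 7.70% were on chromosome 7 and 27.8% at gene ends. Weak regions limit the precision, since members had median pileups of 38 to 65 fragments.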

Other observations

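On chromosome X, which the rule leaves out, the same ranking gave 4 regions ranking higher in Sphk2 KO and 4 ranking higher in WT among 312 shared regions. Of 73 microRNA hairpins in shared regions, 2 lay in members: Mir762 on chromosome 7, in a region with a gap of 20.2 points, and Mir8094 on chromosome 17, also with a gap of 20.2. That share is near the 2.89% of all shared regions that were members and says nothing particular of hairpins. Both Plau, the urokinase gene, and Sirpb1c, a signal-regulatory protein gene, had 2 members among 3 shared regions and no region ranking higher in WT. At Plau the gaps were 13.8 and 10.9 points, and at Sirpb1c they were 16.6 and 12.9. Itpkb, which encodes an inositol trisphosphate kinase, had 2 members among 12 shared regions, with gaps of 16.1 and 16.3. These genes were picked after their values were seen. Of the 444 genes with a member, 30 also had a region ranking higher in WT. Over all 9610 genes with a shared region within 100 kb, 547 regions ranked higher in WT. The number of genes holding them was not counted, so the 30 say nothing particular of genes with members.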
